A study of Rattus norvegicus with 10 samples.

Results

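The growth hormone and insulin-like growth factor (IGF) axis was followed in rat liver through 8 genes: the ligand gene Igf1, the binding protein genes Igfbp1, Igfbp2, Igfbp3 and Igfbp4, the acid-labile subunit gene Igfals, the growth hormone receptor gene Ghr and the feedback inhibitor gene Socs2. They were chosen by symbol, and a probe counted as theirs when its accession belonged to one of these symbols. All 8 were found among the 13837 genes that could be named on the array, on 13 of its 41012 probes, and all 13 probes passed the filter on dim probes described below.

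The liver transcriptome of 10 male Sprague Dawley rats was measured on one-colour Agilent oligo arrays, each rat on its own array. The alkylating blister agent sulfur mustard (SM) was the toxicant, and MSTF combines 2 plant extracts, the salvianolic acids of Salvia miltiorrhiza and the flavonoid fraction of Anemarrhena asphodeloides. The 3 control rats received only propylene glycol, the solvent of SM, the 4 SM rats received a single subcutaneous dose of 3.5 mg/kg, which is 0.7 of the LD50, and the 3 SM + MSTF rats received the same dose of SM and, 1 h later, MSTF by the intragastric route at 120 mg/kg. All livers were taken 24 h after SM, so each group is described at a single time, and no rats given MSTF alone were among the arrays.

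Growth hormone is released from the pituitary in pulses in the male rat, binds its receptor on hepatocytes and activates the kinase JAK2 and the transcription factor STAT5, which drive Igf1, Igfals and Socs2. The liver is the main source of circulating IGF1, which travels mostly in a complex with IGFBP3 and the acid-labile subunit, while Igfbp1 and Igfbp2 are the binding protein genes known to go up in fasting and under low insulin. SOCS2 is a feedback inhibitor of the growth hormone receptor.

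Promoter sequences of 7 of the 8 genes were taken from RefSeq (assembly GRCr8) as the 250 bases before the annotated start. Those of Igfbp1, Igfals and Igf1 are shown because Igfbp1 ran opposite to Igfals and Igf1 on the array that stood furthest apart, as described below. They are written 5′ to 3′ on the gene's own strand, and capitals mark matches, on either strand, to CAAAACA or TTATTTTG, which together make up the insulin response element known from Igfbp1. Coordinates are for the plus strand of chromosome 14 for Igfbp1 (chr14:86261027-86261276), chromosome 10 for Igfals (chr10:14403600-14403849) and chromosome 7 for Igf1 (chr7:24172282-24172531).
Igfbp1: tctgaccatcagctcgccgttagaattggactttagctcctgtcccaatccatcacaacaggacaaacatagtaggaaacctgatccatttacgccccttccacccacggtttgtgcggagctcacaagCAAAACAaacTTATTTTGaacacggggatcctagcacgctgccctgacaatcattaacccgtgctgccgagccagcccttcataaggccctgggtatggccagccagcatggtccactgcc
Igfals: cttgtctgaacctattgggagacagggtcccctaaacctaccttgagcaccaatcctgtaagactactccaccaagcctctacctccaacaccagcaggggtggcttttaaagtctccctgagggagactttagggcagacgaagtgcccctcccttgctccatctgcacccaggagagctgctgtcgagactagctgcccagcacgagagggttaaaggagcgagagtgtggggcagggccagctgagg
Igf1: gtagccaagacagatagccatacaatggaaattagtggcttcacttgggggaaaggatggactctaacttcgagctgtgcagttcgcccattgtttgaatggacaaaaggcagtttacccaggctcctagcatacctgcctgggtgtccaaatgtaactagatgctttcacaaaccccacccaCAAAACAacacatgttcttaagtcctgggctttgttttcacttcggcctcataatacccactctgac
Igfbp1 held CAAAACA and TTATTTTG close together, the first starting 121 bases and the second 111 bases before the gene start, and they did not overlap. Igf1 held CAAAACA alone, 67 bases before its start. CAAAACA occurred in 5.46% and TTATTTTG in 1.81% of the 33469 promoter windows of this length. None of the 7 windows held TTCNNNGAA, the spacing that STAT5 prefers, which occurred in 7.67% of all windows.

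Array signals were put on a log2 scale after background subtraction and quantile normalization, so a difference of 1 is a 2-fold change. Between 51.9% and 61.4% of probes per array lay well above background, no spot was saturated, and precision is limited by how few arrays there are. A probe was tested where all arrays of some group had it well above background, which 22991 probes met, by limma in 1 fit over the 10 arrays, and a probe is called changed at a Benjamini-Hochberg adjusted p under 0.05 and at least 1.5-fold. A gene takes the value of its probe with the highest mean signal, and other probes are given where they differ. Errors are SD between arrays or, for differences, standard errors (SE) of the fit. The 4 SM arrays shared slide 2 with no other group, so SM and its slide cannot be told apart. Of the SM + MSTF arrays, replicate 3 was on slide 1 beside all controls and the other 2 were alone on slide 3.

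SM + MSTF replicate 3 stood apart from the other arrays. Of 22986 tested probes with a value on every array, 32.3% lay outside the range of the other 9 arrays on that array, against 14.5% to 23.6% on each of the others. For every probe of the 8 genes, SM + MSTF differences are therefore also given without it. The SM + MSTF arrays that then remain share no slide with another group, so treatment and slide cannot be told apart in those values.

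None of the 8 genes was called changed in any of the 3 comparisons, and neither was any of the 13 probes. Over the whole array 2.41% of tested probes were called between SM and control and 1.26% between SM + MSTF and SM. Between SM + MSTF and control 0 probes were called, and the smallest adjusted p of any probe was 0.246. At an unadjusted p under 0.05, limma listed 0 of 8 genes between SM and control, where 16.4% of all probes passed, 1 of 8 between SM + MSTF and control, where 9.54% passed, and 0 of 8 between SM + MSTF and SM, where 15.9% passed. The gene of the middle comparison was Igfbp3. The median log2 difference of the 8 genes was -0.11 from control to SM, beside 0.03 for all probes, -0.12 from control to SM + MSTF, beside 0.00, and 0.03 from SM to SM + MSTF, beside -0.02.

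Read from brightest probes alone, the data bound the size of a change for some genes. The 95% intervals for SM versus control lay wholly inside 1.5-fold in either direction (0.585 on the log2 scale) for 4 of the 8 genes, Igf1, Igfbp3, Igfbp4 and Ghr. The second probes of Igf1 and Igfbp4 do not keep that bound, with intervals of -1.04 to 0.07 and -0.87 to 0.06. The intervals of Igfbp1, Igfbp2, Igfals and Socs2 reached beyond 1.5-fold both ways, so these arrays do not settle whether those genes changed. In SM + MSTF versus control the interval lay inside 1.5-fold for 3 genes, Igf1, Igfbp4 and Ghr. None of their other probes kept that bound: Igf1 had -0.86 to 0.31, Igfbp4 -0.88 to 0.11, and Ghr -0.91 to 0.09 and -0.88 to 0.11. Between SM + MSTF and SM the interval lay inside for the same 4 genes as between SM and control. It did not on the second Igf1 probe (-0.34 to 0.76), the second Igfbp3 probe (-0.63 to 0.14) or the other Ghr probes (-0.98 to -0.05 and -0.95 to -0.03).

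**Figure D1:**
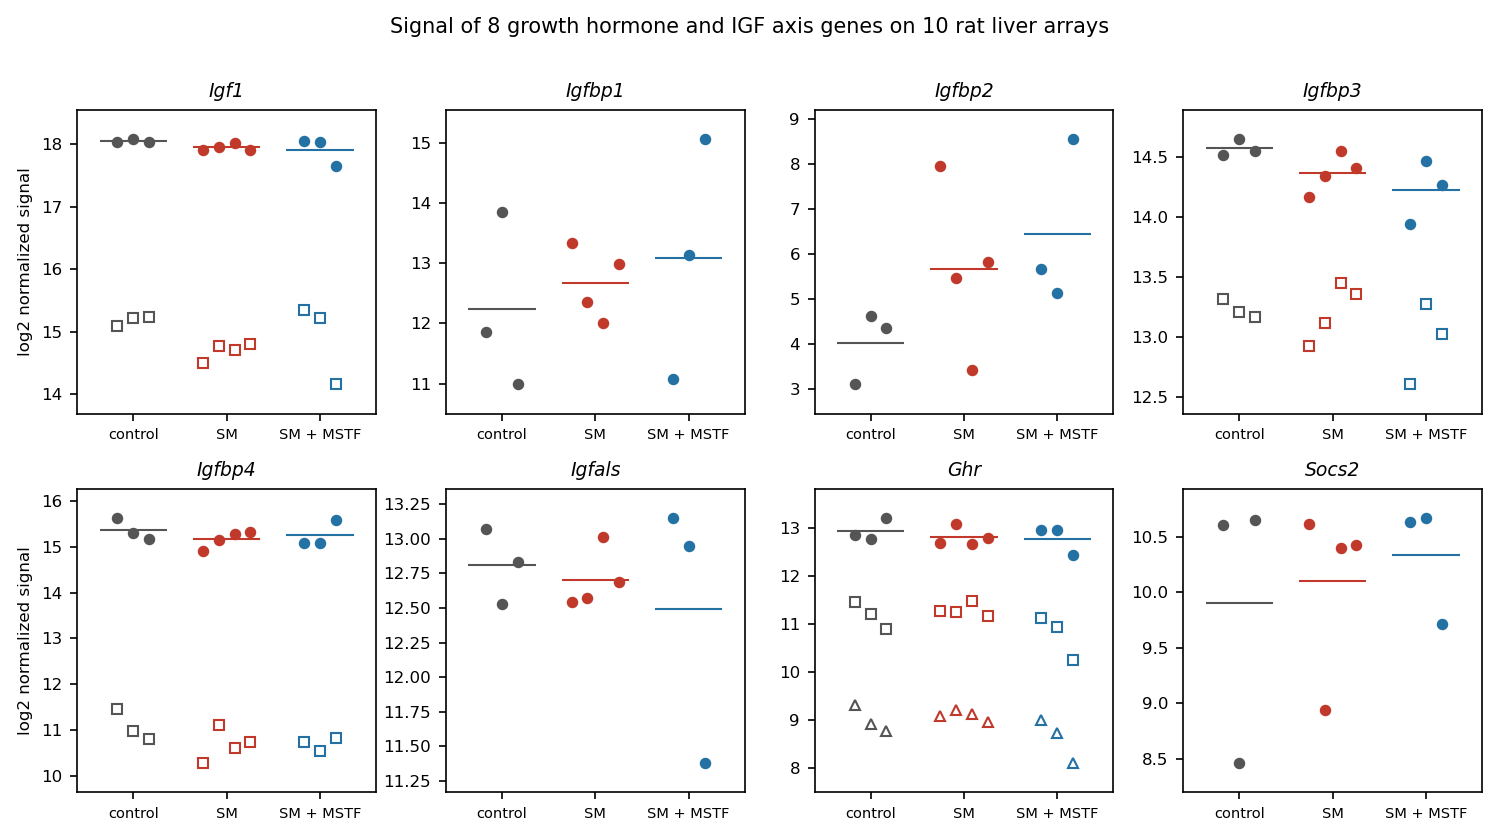
Log2 normalized signal of each gene on each array, by group. Each point is 1 rat in replicate order, filled circles are the brightest probe of a gene with a line at the group mean, and open squares and triangles are its other probes. The third SM + MSTF point lies below all others for Igf1, Igfals and Ghr and above all others for Igfbp1 and Igfbp2. The vertical scales differ between panels.

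Igf1 encodes the hormone itself. On its brightest probe the log2 signal was 18.03, 18.08 and 18.04 in control, 17.91, 17.95, 18.02 and 17.91 in SM, and 18.05, 18.03 and 17.65 in SM + MSTF. Every SM array lay below every control array, by little: the means were 17.95 ± 0.05 (SD, n = 4) and 18.05 ± 0.03 (SD, n = 3). Across all tested probes, 18% had SM and control arrays that did not overlap, 7.96% with SM lower, and Igf1 was the only one of the 8 genes among them. The difference was -0.10 (SE 0.11, 95% interval -0.35 to 0.14, limma adjusted p = 0.700). The second Igf1 probe, placed on a different Igf1 transcript record, read 15.09, 15.21 and 15.24 in control, 14.50, 14.77, 14.71 and 14.80 in SM, and 15.34, 15.21 and 14.16 in SM + MSTF. It also had all SM arrays below all control arrays, with a larger difference of -0.49 (SE 0.25, interval -1.04 to 0.07, limma adjusted p = 0.371), a 1.40-fold lower signal that was not called. In SM + MSTF, replicates 1 and 2 lay near or above the controls on both probes, and replicate 3 was the lowest of the 10 arrays on both. SM + MSTF versus control gave -0.14 (SE 0.12) on the brightest probe, and -0.01 without replicate 3. SM + MSTF versus SM gave -0.04 (SE 0.11), and 0.09 without it. The second probe gave -0.28 (SE 0.26) against control and 0.21 (SE 0.25) against SM, and without replicate 3 it gave 0.10 and 0.58, the latter with a limma adjusted p of 0.0516.

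Ghr encodes the receptor through which growth hormone acts on the liver. Its brightest probe read 12.84, 12.77 and 13.20 in control, 12.69, 13.07, 12.65 and 12.78 in SM, and 12.94, 12.94 and 12.43 in SM + MSTF. The groups overlapped in every comparison on this probe, with differences of -0.14 (SE 0.17) for SM and -0.17 (SE 0.18) for SM + MSTF against control, and -0.02 (SE 0.17) for SM + MSTF against SM. The 2 other Ghr probes had the opposite sign in SM versus control, at 0.10 (SE 0.21) each. Against SM, their SM + MSTF values were at -0.51 (SE 0.21, limma adjusted p = 0.278) and -0.49 (SE 0.21, limma adjusted p = 0.292), both with an unadjusted p under 0.05. Without replicate 3 they were -0.26 and -0.23, with limma adjusted p of 0.534 and 0.566. Against control these probes gave -0.41 (SE 0.22) and -0.39 (SE 0.22), and -0.15 and -0.13 without replicate 3. On the first of them the SM + MSTF arrays read 11.12, 10.93 and 10.25, all below the 4 SM arrays at 11.27, 11.24, 11.47 and 11.15, a pattern that 8.73% of all tested probes showed in this direction. Replicate 3 was the lowest of the 10 arrays on all 3 Ghr probes, at 12.43, 10.25 and 8.10, and without it the brightest probe gave 0.00 for SM + MSTF against control and 0.15 against SM.

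Igfals encodes the acid-labile subunit, the third part of the circulating IGF1 complex. Its log2 signal was 13.07, 12.53 and 12.83 in control, 12.54, 12.57, 13.01 and 12.69 in SM, and 13.15, 12.95 and 11.38 in SM + MSTF. Control and SM overlapped widely, with a difference of -0.11 (SE 0.37, limma adjusted p = 0.918). In SM + MSTF, 2 arrays lay within or above the control range and replicate 3 lay 1.15 below the lowest of the other 9 arrays. The difference of SM + MSTF from control was -0.32 (SE 0.40, limma adjusted p = 0.823) with that array and 0.24 without it, so its sign rests on 1 rat. Against SM it was -0.21 (SE 0.37) with that array and 0.35 without it. With slide as a fixed block the comparison came from replicate 3 against the 3 controls of its slide, and the difference was -1.43, a call at a limma adjusted p of 0.0338, within a range of 0.0338 to 0.979 over the 20 alternatives with this value.

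Igfbp3 encodes the main carrier of IGF1 in the circulating complex. Its brightest probe read 14.52, 14.65 and 14.55 in control, 14.17, 14.34, 14.55 and 14.41 in SM, and 13.94, 14.47 and 14.27 in SM + MSTF. All SM + MSTF arrays lay below all control arrays, as 7.4% of tested probes did in this comparison, while control and SM overlapped. The difference of SM + MSTF from control was -0.35 (SE 0.15, interval -0.68 to -0.02), with an unadjusted limma p of 0.0408 and an adjusted p of 0.504. The second Igfbp3 probe, the mean of 10 spots, gave -0.26 (SE 0.18) with overlapping groups and -0.29 without replicate 3, and -0.02 (SE 0.17) in SM versus control where the brightest probe gave -0.21 (SE 0.14). The lowest array on both probes was SM + MSTF replicate 1, at 13.94 and 12.61, and not replicate 3. Without replicate 1 the difference on the brightest probe was -0.21, and without replicate 3 it was -0.37. SM + MSTF against SM gave -0.14 (SE 0.14), and -0.16 without replicate 3, and the second probe -0.24 (SE 0.17), and -0.27 without it.

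Igfbp4 encodes a binding protein that mostly holds IGF1 back from its receptor. Its brightest probe read 15.63, 15.30 and 15.17 in control, 14.90, 15.15, 15.27 and 15.33 in SM, and 15.09, 15.09 and 15.58 in SM + MSTF. All groups overlapped, with differences of -0.20 (SE 0.17), -0.11 (SE 0.18) and 0.09 (SE 0.17) for SM against control, SM + MSTF against control and SM + MSTF against SM. The second Igfbp4 probe gave -0.41 (SE 0.21), -0.39 (SE 0.22) and 0.02 (SE 0.21) in the same order, also with overlapping groups. Without SM + MSTF replicate 3, the brightest probe gave -0.27 against control and -0.07 against SM, so the sign of the latter rests on that array. The second probe then gave -0.44 and -0.04, again with a turned sign against SM.

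Igfbp1 encodes the binding protein whose liver transcription is held down by insulin. Its log2 signal was 11.86, 13.85 and 10.99 in control, 13.34, 12.35, 12.01 and 12.99 in SM, and 11.08, 13.14 and 15.07 in SM + MSTF. The 3 control rats alone spanned 2.86 on the log2 scale, and the 3 SM + MSTF rats 3.99, so the groups overlapped in every comparison. The within-group SD was 1.38, and only 0.361% of tested probes had a larger one, where the median probe had 0.20. The differences were 0.44 (SE 0.90, interval -1.59 to 2.46) for SM and 0.86 (SE 0.97, interval -1.31 to 3.03) for SM + MSTF, each against control. Single rats turned these values: SM versus control was 1.24 without control replicate 2 and -0.19 without control replicate 3, and SM + MSTF versus control was -0.13 without SM + MSTF replicate 3. SM + MSTF versus SM was 0.43 (SE 0.90) with that array and -0.56 without it.

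Igfbp2 encodes another binding protein known for rising in fasting, and its signal was dim. It read 3.10, 4.61 and 4.35 in control, 7.96, 5.47, 3.41 and 5.81 in SM, and 5.67, 5.13 and 8.55 in SM + MSTF. The probe was well above background on 1 of 3 control arrays, 3 of 4 SM arrays and 3 of 3 SM + MSTF arrays. It thus entered the test only through SM + MSTF, the group where it was highest, so its height there is no independent result, and the control values lie largely at background. All SM + MSTF arrays lay above all control arrays, as 8.03% of tested probes did, and 3 of 4 SM arrays did too, while SM replicate 3 lay within the control range. The fitted differences were the largest among the 8 genes and also had the widest intervals, at 1.64 (SE 1.06, interval -0.74 to 4.02, limma adjusted p = 0.494) for SM and 2.43 (SE 1.14, interval -0.12 to 4.97, limma adjusted p = 0.538) for SM + MSTF, each against control. Fitted values near background move with the background correction, and normexp correction gave 0.65 and 1.07 for these comparisons. Leaving out arrays one at a time kept SM + MSTF versus control between 1.38, without SM + MSTF replicate 3, and 3.09. SM + MSTF versus SM was 0.79 (SE 1.06), and -0.26 without the same array.

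Socs2 encodes the inhibitor that growth hormone itself induces. Its log2 signal was 10.61, 8.46 and 10.65 in control, 10.62, 8.94, 10.40 and 10.43 in SM, and 10.63, 10.67 and 9.71 in SM + MSTF. In each group all arrays but 1 lay at 10.40 to 10.67, and the lower arrays were control replicate 2, SM replicate 2 and SM + MSTF replicate 3. The spread within groups therefore exceeded the difference between them, with an SD of 0.89 and only 1.82% of tested probes above it. SM versus control was 0.19 (SE 0.59, limma adjusted p = 0.907) and turned to -0.53 without control replicate 2. SM + MSTF versus control was 0.43 (SE 0.63) and turned to -0.29 without the same array. Without SM + MSTF replicate 3 it was 0.74, and SM + MSTF versus SM went from 0.24 (SE 0.59) to 0.55.

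**Figure D2:**
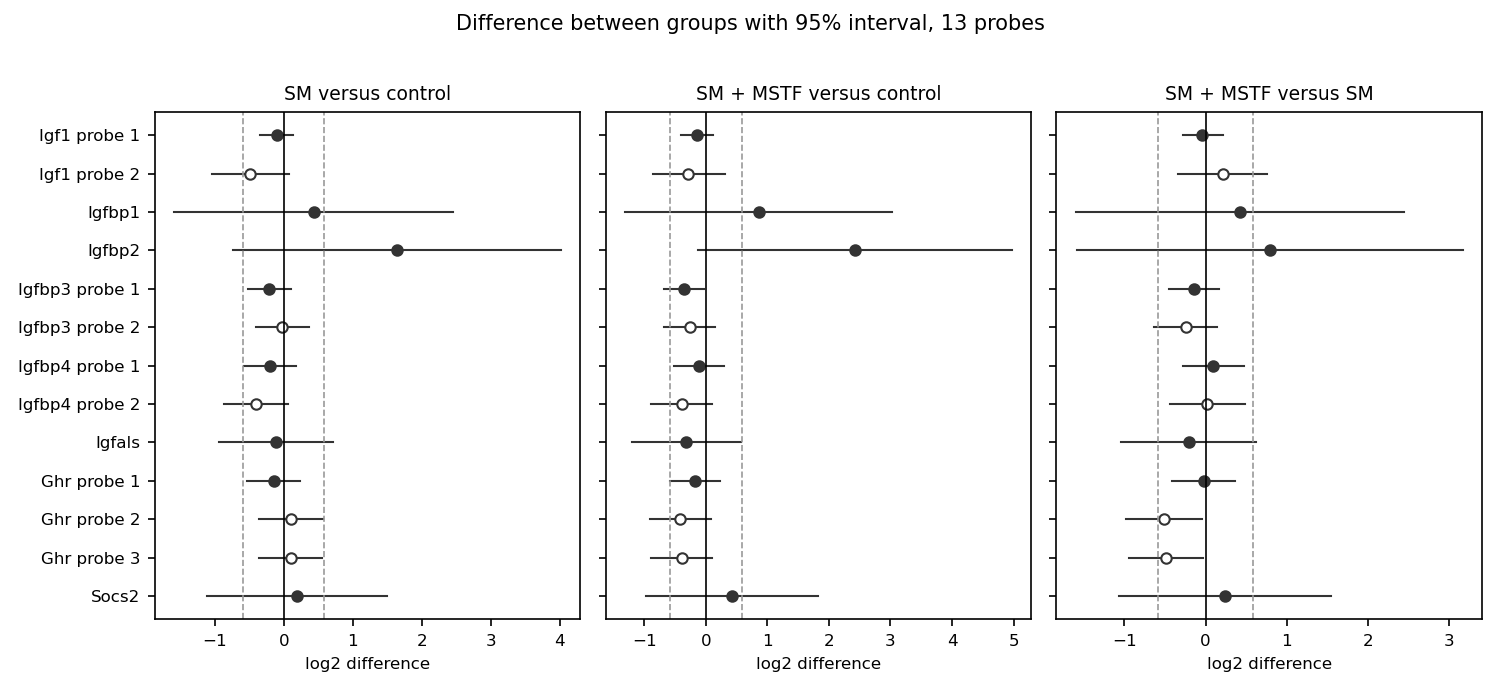
Log2 difference between groups for the 13 probes with 95% intervals from the limma fit, 1 panel per comparison. Filled circles are the brightest probe of each gene, open circles its other probes, and dashed lines mark 1.5-fold. The intervals of Igfbp1, Igfbp2 and Socs2 are several times wider than those of Igf1, Igfbp3, Igfbp4 and Ghr, and none of the 13 probes was called. The horizontal scales differ between panels.

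SM + MSTF replicate 3 combined low Igf1, Igfals and Ghr with high Igfbp1 and Igfbp2. For these 5 of the 8 genes it lay outside the range of the other 9 arrays, where 32.3% of all tested probes did, and it did so on both Igf1 probes and all 3 Ghr probes. Igfbp1 was at 15.07 against 10.99 to 13.85 elsewhere, Igfbp2 at 8.55 against 3.10 to 7.96, and Igfals at 11.38 against 12.53 to 13.15. Igfbp3, Igfbp4 and Socs2 lay inside the range of the other arrays.

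Some genes that answer to insulin and the transcription factor FOXO1 also lay outside the other arrays there. Of 8 such genes tested, 3 lay above the other 9 arrays, 2 below and 3 inside, on an array where 32.3% of all probes were outside. The share differed between the other lists. It was high for stellate cell markers, with 6 of 9 outside, all below, and for male-biased genes, with 5 of 9. It was low for female-biased genes, with 1 of 8 below, and for Kupffer cell and macrophage markers, with 2 of 9 above. The gluconeogenic genes G6pc1 and Pck1 were at 16.69 and 15.57, and Ppargc1a, a coactivator of gluconeogenic genes, was at 6.05, all above the other arrays. Fasn, the fatty acid synthase gene that insulin induces, was at 12.05, below the other arrays. Irs2, an adaptor of the insulin receptor, was at 10.45 against 7.48 to 8.78 on the other arrays. It is not of this list but of the other IGF genes described below, where it was the only 1 of 7 tested to lie outside. Of the genes named here, G6pc1 and Pck1 were singled out after their values were seen. None of the 8 insulin and FOXO1 genes was called in any comparison between groups. Their median difference was 0.22 for SM and 0.14 for SM + MSTF against control, and 0.02 for SM + MSTF against SM. Fasn was 0.46 (SE 0.58, limma adjusted p = 0.754) in SM versus control. Ppargc1a was 1.11 (SE 0.48, limma adjusted p = 0.293), but it was well above background on 1 of 3 control and 4 of 4 SM arrays and entered the test only through SM, where it was highest.

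Over the 10 arrays, Igfbp1 and Igfals ran in opposite directions, with Pearson's r = -0.82 and Spearman's rho = -0.81, and r = -0.67 over the 9 arrays without SM + MSTF replicate 3. Igfbp1 and G6pc1 ran together, with r = 0.85 and rho = 0.88, and r = 0.83 without that array. Igf1 and Igfals had r = 0.89 but rho = 0.42, and r was 0.47 without that array, so the relation rested largely on it. These values describe 10 rats over 3 treatments that share their normalization, and 28 pairs of the 8 genes were looked at. Control replicate 2 had the highest Igfbp1 outside SM + MSTF replicate 3 and the lowest Igfals among the remaining arrays, at 13.85 and 12.53, and its G6pc1 was 16.41.

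**Figure D3:**
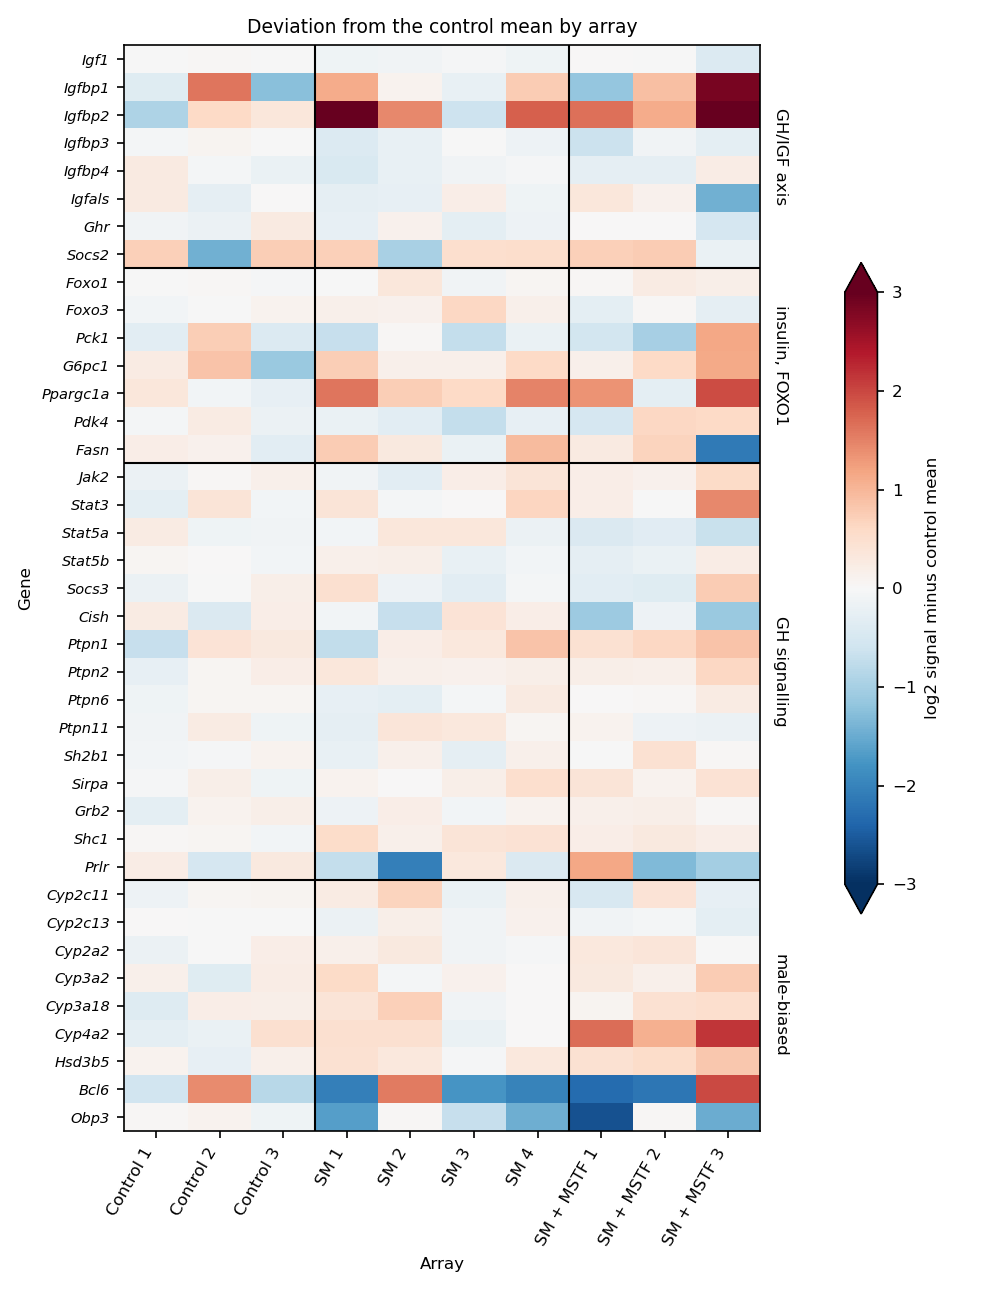
Log2 signal minus the mean of the 3 controls for the 8 axis genes and genes of 3 lists (rows, brightest probe of each gene) on each array (columns). Red is above and blue below the control mean, and the colour scale ends at 3, which Igfbp2 exceeds on SM replicate 1 and SM + MSTF replicate 3. The last column stands apart for Igfbp1, Igfals, Fasn and Stat3, and Bcl6 is high in 1 column of each group.

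Socs2 varied between rats together with Onecut1 and against Bcl6, genes for liver transcription factors that growth hormone regulates. Onecut1 was at 13.65, 10.35 and 13.76 in control, 13.01, 10.05, 13.48 and 14.03 in SM, and 14.00, 14.17 and 10.85 in SM + MSTF. Its lowest array in each group was the one with the lowest Socs2. Bcl6 was at 10.87, 12.87 and 10.61 in control, 9.39, 13.01, 9.68 and 9.45 in SM, and 9.13, 9.29 and 13.44 in SM + MSTF, and its highest array in each group was again that one. Over the 10 arrays Socs2 had r = 0.93 with Onecut1 and r = -0.83 with Bcl6. The lowest r with Onecut1 within a group was 0.94, where each group held few arrays and a single low one. Onecut1 is also among the 3 genes of 9184 most like Socs2 on these same arrays, so its high r is no independent result. Neither gene differed between groups beyond its spread: in SM versus control Bcl6 was -1.06 (SE 1.22, limma adjusted p = 0.719) and Onecut1 0.06 (SE 1.21, limma adjusted p = 0.987). Cish, another growth hormone induced inhibitor, had a weaker relation to Socs2, with r = 0.42.

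**Figure D4:**
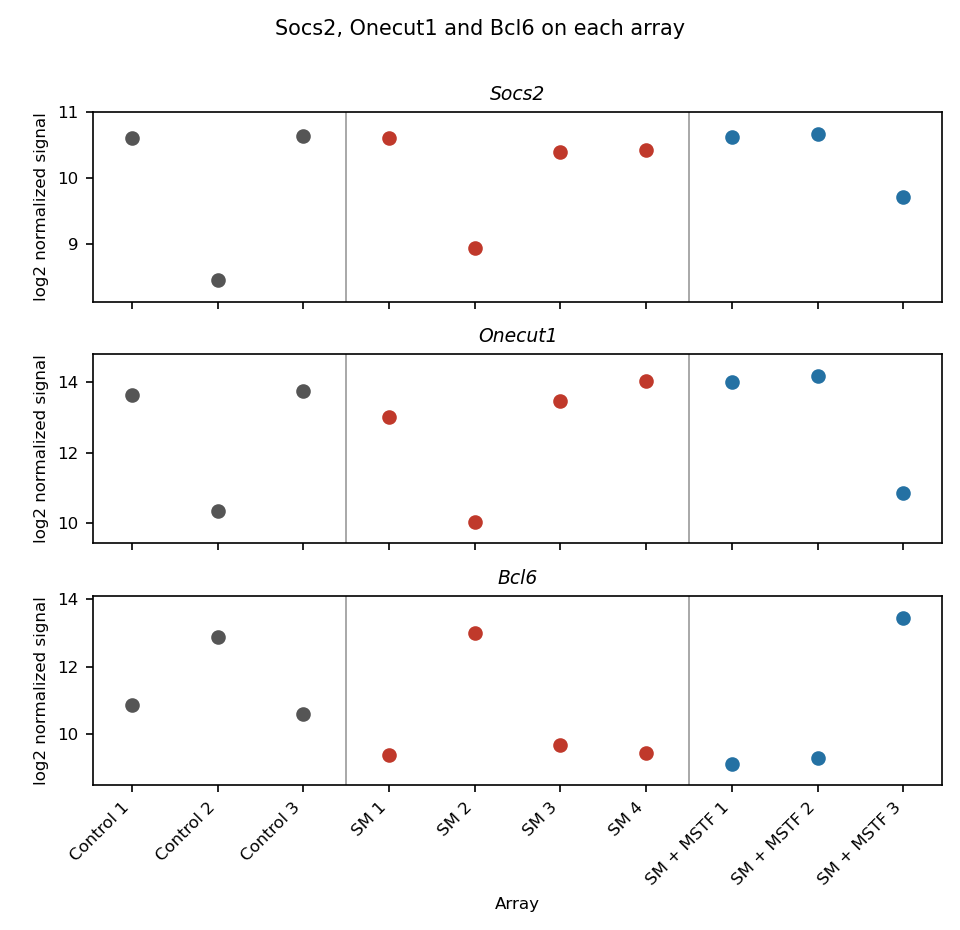
Log2 normalized signal of Socs2, Onecut1 and Bcl6 on each of the 10 arrays, with vertical lines between groups. Control replicate 2, SM replicate 2 and SM + MSTF replicate 3 have the lowest Socs2 and Onecut1 and the highest Bcl6 of their groups.

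The genes most like each of the 8 over the 10 arrays were sought among 9184 genes. For Socs2 they were Birc2 (r = 0.961), Aff1 (r = 0.934) and Onecut1 (r = 0.931), and these held at 0.94 or above without SM + MSTF replicate 3. For Igfbp1 they were Depp1 (r = 0.890), a FOXO target, Fst (r = 0.888), the follistatin gene, and Surf6 (r = 0.884). Without the same array these 3 were at 0.79, 0.84 and 0.85. For Igf1 they were Loxl1 (r = 0.957), Tomm40l (r = 0.953) and Cdip1 (r = 0.943), and for Igfals Ssx2ip (r = 0.953), Mlx (r = 0.946) and Mab21l3 (r = 0.946). The first of each dropped without SM + MSTF replicate 3, Loxl1 to 0.79 and Ssx2ip to 0.74. For Igfbp2 they were Cyp27a1 (r = 0.954), Mtarc2 (r = 0.943) and Tmem176b (r = 0.924), for Igfbp3 Srpk3 (r = 0.979), Spp2 (r = 0.918) and Notch1 (r = 0.900), for Igfbp4 Rpl36al1 (r = 0.907), Art1 (r = 0.898) and Cib1 (r = 0.886), and for Ghr Echs1 (r = 0.934), Dld (r = 0.931) and Gnpnat1 (r = 0.916). These are the highest of 9184 values each, over only 10 arrays, and carry no test.

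No further gene of the axis was called. Of 15 other IGF ligand, receptor, binding protein and protease genes, 12 had a named probe and 7 passed the filter, and none was called in any comparison. The largest differences in SM versus control were those of Igfbp6, which prefers IGF2, at -0.66 (SE 0.31, limma adjusted p = 0.325), and Irs2, at -0.49 (SE 0.59, limma adjusted p = 0.738). Igfbp5 stood well above background on 0 of 10 arrays and Igf1r, the IGF1 receptor gene, on 4 of 10. Of 17 genes of growth hormone receptor signalling, 16 were tested and none was called. Prlr, the prolactin receptor, was at -0.72 (SE 0.66, limma adjusted p = 0.642) in SM versus control. Jak2 and Stat5b, which carry the receptor's signal, were at 0.04 (SE 0.18) and 0.01 (SE 0.15). On SM + MSTF replicate 3, 7 of the 16 lay above and 2 below all other arrays, beside 32.3% of all probes outside either way. Among them were Stat3, a mediator of the acute phase response, at 12.05 above and Stat5a at 9.64 below. All SM + MSTF arrays had low Stat5a, at 9.64 to 9.96, below every SM array (10.14 to 10.65) and every control array (10.18 to 10.55). Of all tested probes, 8.73% lay wholly lower against SM and 7.4% against control. The Stat5a differences were -0.59 (SE 0.17, limma adjusted p = 0.141) against SM and -0.48 (SE 0.18, limma adjusted p = 0.459) against control.

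Some liver genes owe their sex bias to the pattern of growth hormone release, and 1 of them was called. Of 9 male-biased genes, all tested, 0 were called between SM and control and 1 between SM + MSTF and SM, where 1.26% of all probes were called. That gene was Cyp4a2, a fatty acid hydroxylase and known PPARA target, at 10.77, 10.87 and 11.54 in control, 11.53, 11.54, 10.87 and 11.06 in SM, and 12.74, 12.13 and 13.21 in SM + MSTF. All SM + MSTF arrays lay above the other 7, where 5.95% of tested probes had all SM + MSTF arrays above all SM arrays. Cyp4a2 rose by 1.44 (SE 0.29) over SM with a limma adjusted p of 0.0465, which over the alternatives with adjustment ran from 0.0375 to 0.239. The call held under 7 of 20 alternatives, and without SM + MSTF replicate 3 the difference was 1.18 and not called. Obp3, a male-specific lipocalin gene, was at -0.94 (SE 0.58, limma adjusted p = 0.465) in SM versus control, and Cyp2c11, the main male-specific P450, at 0.22 (SE 0.24). Of 9 female-biased genes 8 were tested and none was called. The largest differences in SM versus control were A1bg at -1.40 (SE 0.67, limma adjusted p = 0.335) and Sult2a1, a sulfotransferase, at -0.40 (SE 0.35, limma adjusted p = 0.623). A1bg was well above background on 3 of 3 control, 2 of 4 SM and 2 of 3 SM + MSTF arrays. It entered the test only through control, where it was highest, so its lower level in SM is no independent result. All 8 female-biased genes tested were higher in SM + MSTF than in SM, with a median difference of 0.34 beside -0.02 for all probes, and 0.38 without SM + MSTF replicate 3. None of them passed an unadjusted p under 0.05.

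Bulk liver holds several cell types, and fewer cells of a type and less RNA per cell cannot be told apart. All 10 hepatocyte markers were measured, none was called, and the log2 of their summed signal was 20.87 to 20.94 in control, 20.82 to 20.90 in SM and 20.84 to 20.91 in SM + MSTF. The largest hepatocyte differences in SM versus control were Apoa1 at -0.22 and Hnf4a at 0.17. In SM + MSTF versus control, 4 of 10 hepatocyte markers had an unadjusted limma p under 0.05, some higher and some lower, where 9.54% of all probes did. None of the 9 Kupffer cell and macrophage markers tested was called. All 9 were lower in SM than in control, with a median difference of -0.10 beside 0.03 for all probes. In SM + MSTF all 9 were higher than in SM, with a median of 0.41 beside -0.02, where 10663 of 22991 tested probes were higher. At an unadjusted limma p under 0.05 were 4 of 9 there, and 15.9% of all probes. All 9 were also higher in SM + MSTF than in control, with a median of 0.28 beside 0.00. Without SM + MSTF replicate 3, 9 of 9 were higher than in SM (median 0.34) and 8 of 9 higher than in control (median 0.20). Marco was at -0.60 and Clec4f at -0.37 in SM versus control. The log2 of their summed signal was 16.75 to 17.11 in control, 16.14 to 17.05 in SM and 16.83 to 17.17 in SM + MSTF, and their part in the values of Igf1, Igfbp3 and Igfbp4 was not tested. Of the stellate cell markers 9 were tested, with median differences of -0.09 for SM and -0.25 for SM + MSTF against control, and Col1a1 at -0.99 and Col1a2 at -0.73 for SM. The 8 sinusoidal endothelial markers (Cdh5 at 0.32, Flt4 at -0.22) and 3 cholangiocyte markers (Krt19 at 0.34) gave no call. Of 8 leukocyte and erythroid markers 1 was called, Klrd1 of natural killer cells. It fell by 1.22 in SM versus control (limma adjusted p = 0.0277, between 0.0221 and 0.110 under the alternatives with adjustment), where 1.43% of all probes were called lower. It rose by 1.15 in SM + MSTF versus SM (limma adjusted p = 0.0455, between 0.0408 and 0.269), where 0.322% were called higher, and was 0.95 and not called without SM + MSTF replicate 3. The Klrd1 probe was well above background on 3 of 3 control, 2 of 4 SM and 3 of 3 SM + MSTF arrays. It thus entered the test only through the groups where it was high, so its lower level in SM is no independent result. With the filter that asks for all 10 arrays it gave no value. The calls held under 9 and 6 of 19 alternatives, and normexp gave -0.37 and 0.30. Cd79b, a B cell gene that entered the test only through control, was at -2.18 (limma adjusted p = 0.125) in SM versus control and well above background on 2 of 4 SM arrays.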

How the data were processed

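Total RNA from 10 rat livers was labelled with Cy3 and hybridized to 1 array each. The authors read the scans with Agilent Feature Extraction 10.7, and the deposited scanner files give each spot a background-subtracted intensity. The authors also deposited log2 values after quantile normalization, used here as an alternative.

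Control spots were removed, as were the 0 to 4 spots of each array with a non-uniformity flag. Intensities were quantile normalized and log2 transformed, and each probe took the mean of its spots. Of 41012 probes, 17512 were named by matching accessions to RefSeq genes of GRCr8. The array design predates that assembly, so probes have no coordinates here. Probes were kept where all arrays of some group had at least 50% of their spots well above background, and the 22991 kept were tested with limma 3.58.1 in R 4.3.3 (lmFit and eBayes, Benjamini-Hochberg adjustment), a procedure tested on simulated data. Depth on arrays is signal over background, and its median per array was 2.20 to 2.54. Groups came from the sample labels, which give treatment, tissue and hour but no rat. The authors describe the arrays as individual rats, so p-values set a difference against the spread between rats within groups. In comparisons with SM that difference also holds any difference between slides. In SM + MSTF versus control it does so in part, as SM + MSTF replicates 1 and 2 were on slide 3 and all controls on slide 1.

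Named are all 8 genes with every probe, from each other gene list any called gene and the 2 with the largest absolute difference in SM versus control, and for each of the 8 the 3 genes of highest correlation. Jak2, Stat5b, Stat3, Stat5a, Cish, Cyp2c11, G6pc1, Pck1, Igf1r and Igfbp5 were named in addition, after their values were seen. A few genes that the rule or the lists hold are not reported here. The 8 genes and all lists were chosen with earlier results of these data known. The alternatives were 75th percentile scaling, the deposited log2 values, normexp with an offset of 50, other filters, no fold minimum, 2 groups per fit, the methods' t-test, replicate number or slide as a block, the mean of all probes of a gene, and each array left out.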

Additional observations from a re-analysis of the deposited data

Results flagged for a closer look

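Socs2 in SM replicate 2 was at a log2 signal of 8.94, where the nearest of the other SM arrays was at 10.40 and the highest at 10.62. The gap took 0.872 of the range of the 4 arrays, above Dixon's critical share, which chance passes in about 1 of 20 groups. Of the 13 probes this was the only one with such a gap among the SM arrays, and the groups of 3 arrays were not tested in this way.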

How the results depend on the processing

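No gene of the 8 was called in any comparison with any single array left out or under any other alternative, with 1 exception. With slide as a fixed block, 1 gene was called in SM + MSTF versus control (Igfals), because that fit sets SM + MSTF replicate 3 alone against the controls of its slide. The same fit turned Igfbp4 to 0.21 and Socs2 to -0.20. The sign of other small differences turned for Igfbp4 in SM + MSTF versus SM with 75th percentile scaling (-0.02), for Igf1 in SM + MSTF versus SM with normexp (0.03) or the mean of both probes (0.09), and for Ghr in SM versus control with the mean of its probes (0.02). The cause was not tested. A fixed slide block could not be fitted for comparisons with SM, and Igfbp2 gave no value with the filter that asks for all 10 arrays.

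With arrays left out in turn, differences in SM versus control ran from -0.19 to 1.24 for Igfbp1, -0.25 to 0.02 for Igfals and -0.53 to 0.58 for Socs2. In SM + MSTF versus control they ran from -0.13 to 1.87 for Igfbp1, -0.27 to 0.02 for Igfbp4, -0.65 to 0.24 for Igfals, -0.26 to 0.00 for Ghr and -0.29 to 0.80 for Socs2. In SM + MSTF versus SM they ran from -0.11 to 0.09 for Igf1, -0.56 to 1.44 for Igfbp1, -0.26 to 1.55 for Igfbp2, -0.27 to 0.00 for Igfbp3, -0.07 to 0.17 for Igfbp4, -0.54 to 0.35 for Igfals, -0.11 to 0.15 for Ghr and -0.15 to 0.55 for Socs2.

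Counts of called probes over the whole array moved more. SM versus control gave 553, and 226 with normexp, 342 without a filter, 336 with probes above background on all 10 arrays, 1131 and 320 by the methods' t-test without and with adjustment, 85 with slide as a random block and 65 (without control replicate 2) to 327 with an array left out. SM + MSTF versus SM gave 290, and 60, 140, 863, 13 and 102 with normexp, all 10 arrays, the t-test both ways and the random block, 147 with only 2 groups in the fit, and 98 (without SM replicate 1) to 301. SM + MSTF versus control gave 0, and 285 by the unadjusted t-test, 291 with slide as a fixed block and 247 without SM + MSTF replicate 3.

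Replicate numbers are shared between groups but belong to different rats. Deviations of same-numbered arrays correlated between -0.10 and 0.17 over 9 pairs, so the numbers do not pair the rats. With the replicate block 0 of the 8 genes were called in each comparison, and 53 probes for SM against control, 0 for SM + MSTF against control and 64 for SM + MSTF against SM.

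Signal over background limits Igfbp2. The intervals of Igfbp1, Socs2 and Igfals, whose within-group SD was 1.38, 0.89 and 0.56, reach past 1.5-fold.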
